A study of Mus musculus with 6 samples.

Results

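The genes described here, 9 of the insulin-like growth factor (IGF) system, were followed in cortical thymic epithelial cells (cTECs): the ligand gene Igf1, the receptor genes Igf1r and Insr, and the binding protein genes Igfbp2, Igfbp3, Igfbp4, Igfbp5, Igfbp6 and Igfbp7. They were taken by symbol through the Ensembl gene identifiers, and all 9 were found among 50600 gene identifiers. Mice aged 8 to 10 weeks gave the thymic cells of 6 libraries, 3 labelled B6.B6CB-Psmb11tm1Smta (Psmb11-/-), called KO (replicates A to C), and 3 labelled B6.B6CB-Psmb11tm1Smta (Psmb11+/+), called WT (replicates A to C). Both groups thus carry the same strain name and differ in the Psmb11 allele. Polyadenylated RNA was sequenced. The genotypes are compared to find what loss of Psmb11 alters in cTECs. Psmb11 is the gene of the thymoproteasome subunit β5t. The labels do not say whether the replicates of a genotype were separate mice, nor how the cells were gated, and p-values therefore measure only the spread between these samples.

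IGF1 is a secreted hormone and local growth factor made in response to growth hormone and also by stromal cells. It binds the tyrosine kinase receptor IGF1R and, with lower affinity, the insulin receptor, which signal through insulin receptor substrates to PI3K, Akt, mTORC1 and FoxO factors. IGF binding proteins hold the ligand outside the cell, prolong its life and limit or focus its access to receptors, and proteases that cut them release it. In the thymus, IGF1 is known to act on thymocytes and on epithelial cells.

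Total gene counts were 34265035 to 36713388 in the 3 KO libraries and 34660349 to 39224292 in the 3 WT libraries. Psmb11 had 67, 36 and 41 counts in KO libraries A to C and 8293, 9297 and 10027 counts in WT libraries A to C. Markers listed for cTECs summed to 10014 to 11053 CPM (counts per library, scaled for depth) in KO and 14734 to 15234 CPM in WT, far above thymocyte markers, which summed to 117 to 192 CPM in KO, against 115 to 132 CPM in WT. Of 20 cTEC markers, 2 were called higher and 15 lower in KO. The list and its lower calls include Psmb11, the deleted gene, with a mean of 1.33 CPM in KO, against 252 CPM in WT. That fall, which also enters the sums, follows from the genotype. Fibroblast and pericyte markers summed to 1773 to 1866 CPM in KO, against 1268 to 1418 CPM in WT, and 12 of 17 tested were called higher in KO. Dendritic cell and macrophage markers summed to 78.6 to 85.3 CPM in KO, against 45.3 to 50.4 CPM in WT, with 8 of 14 tested called higher (5 without KO replicate A or WT replicate A, and 4 of 9 with limma on log2(TPM + 1)). Medullary epithelial markers summed to 7358 to 7706 CPM in KO, against 5992 to 6545 CPM in WT, with 10 of 17 called higher and 1 lower (7 of these markers higher and none lower by limma on log2(TPM + 1)). KO replicate A held the highest sums of thymocyte markers (192 CPM) and endothelial markers (85.5 CPM, against 32.8 and 51.0 CPM in KO replicates B and C and 25.4 to 61.1 CPM in WT). Of 19 thymocyte markers tested, 2 were called higher, against 6 without KO replicate C, 4 without KO replicate B, 1 without KO replicate A, WT replicate A or WT replicate C, and 0 of 15 with limma on log2(TPM + 1). Of 15 endothelial markers tested, 1 was called higher, against 3 without WT replicate C, 2 without KO replicate B, and 0 without WT replicate A, WT replicate B or KO replicate A, the last with 1 called lower. These 2 counts thus turn on single libraries. These sums are given because stromal cells other than cTECs also make IGF system RNA.

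Promoter sequence is shown for the 2 most abundant binding protein genes, Igfbp5 and Igfbp4, and for the 3 genes that were called lower in KO, Igfbp2, Igfbp7 and Igf1r. Each stretch lies upstream of a RefSeq transcript start, 5′ to 3′ on the gene's strand, and capitals mark TATAAA or GGGCGG on either strand. The Igfbp5 stretch is chr1:72874885-72875115, minus strand, and that of Igfbp4 is chr11:99040994-99041243, plus strand (RefSeq, GRCm38.p6). Those of Igfbp2, Igfbp7 and Igf1r are chr1:72824230-72824479 (plus), chr5:77408046-77408295 (minus) and chr7:67952007-67952256 (plus). The Igfbp5 stretch has 231 bases and ends 19 bases short of its RefSeq start, since those bases lie in an annotated exon and were left out. The others have 250 and lie directly upstream.
Igfbp5: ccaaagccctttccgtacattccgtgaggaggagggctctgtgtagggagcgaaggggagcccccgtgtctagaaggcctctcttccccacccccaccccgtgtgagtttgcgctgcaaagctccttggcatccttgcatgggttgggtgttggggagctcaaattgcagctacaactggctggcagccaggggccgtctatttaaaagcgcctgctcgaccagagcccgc
Igfbp4: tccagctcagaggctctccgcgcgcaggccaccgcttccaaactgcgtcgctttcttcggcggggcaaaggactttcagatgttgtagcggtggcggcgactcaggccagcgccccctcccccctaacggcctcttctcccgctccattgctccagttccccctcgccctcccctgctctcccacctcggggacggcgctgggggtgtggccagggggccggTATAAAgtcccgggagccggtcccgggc
Igfbp2: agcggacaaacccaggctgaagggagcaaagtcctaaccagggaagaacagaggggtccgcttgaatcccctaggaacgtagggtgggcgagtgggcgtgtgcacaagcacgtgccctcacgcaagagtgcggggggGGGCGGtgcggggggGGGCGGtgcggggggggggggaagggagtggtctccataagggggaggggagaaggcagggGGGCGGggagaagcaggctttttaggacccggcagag
Igfbp7: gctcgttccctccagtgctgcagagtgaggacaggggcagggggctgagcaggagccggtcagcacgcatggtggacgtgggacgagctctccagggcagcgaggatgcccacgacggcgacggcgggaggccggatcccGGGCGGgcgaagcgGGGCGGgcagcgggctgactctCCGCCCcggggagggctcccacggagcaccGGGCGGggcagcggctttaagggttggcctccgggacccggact
Igf1r: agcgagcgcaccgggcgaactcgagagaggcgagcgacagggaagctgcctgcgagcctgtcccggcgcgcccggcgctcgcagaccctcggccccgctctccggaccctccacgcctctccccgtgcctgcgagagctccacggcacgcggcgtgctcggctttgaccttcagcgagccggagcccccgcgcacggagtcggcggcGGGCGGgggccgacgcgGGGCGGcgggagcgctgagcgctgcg

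The letters GGGCGG, the GC box core read by Sp family factors, occurred 3 times upstream of Igfbp2, 4 times upstream of Igfbp7 and 2 times upstream of Igf1r, and 0 times upstream of Igfbp5 and Igfbp4. Igfbp2 has another RefSeq start, whose window at chr1:72825137-72825386 (plus strand) holds 65 bases of annotated exon and is not printed. That window had 0 matches of GGGCGG and a GC content of 56.4%. At least 1 was present in 32.7% of 32851 windows of 250 bases upstream of mouse RefSeq starts. The letters TATAAA occurred once upstream of Igfbp4 and were present in 12.4% of the windows. The motif searches used both strands, and these matches describe the letters alone. The GC content was 67.2% for Igfbp2, 74.0% for Igfbp7, 77.6% for Igf1r, 60.6% for Igfbp5 and 69.2% for Igfbp4.

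The members lie on 7 chromosomes (GRCm38, GENCODE M21). Igfbp2 (ENSMUSG00000039323.18, chromosome 1, 72824503 to 72852474, plus strand) and Igfbp5 (ENSMUSG00000026185.8, chromosome 1, 72857932 to 72874884, minus strand) stand tail to tail with 5457 bp between them. Igfbp4 (ENSMUSG00000017493.12, 99041244 to 99054392, plus strand) and Igfbp3 (ENSMUSG00000020427.11, 7206086 to 7213923, minus strand) are both on chromosome 11. Igf1 (ENSMUSG00000020053.18) spans 87858265 to 87937042 on the plus strand of chromosome 10, and Igf1r (ENSMUSG00000005533.10) spans 67952827 to 68233668 on the plus strand of chromosome 7. Insr (ENSMUSG00000005534.10) lies on chromosome 8, 3122061 to 3279617, minus strand. Igfbp6 (ENSMUSG00000023046.6) lies on chromosome 15, 102144362 to 102149511, plus strand, and Igfbp7 (ENSMUSG00000036256.13) on chromosome 5, 77349240 to 77408041, minus strand. Genes on the opposite strand overlap Igf1 (Igf1os), Igfbp7 (Polr2b and Gm34648) and Insr. The library kit marks strand and the counts were taken by strand, and Igf1os had 0 to 2 counts in every library.

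Of the 9 genes, which all passed the low count filter, 1 (Igf1) rose and 3 (Igfbp2, Igfbp7 and Igf1r) fell in KO, at an edgeR quasi-likelihood adjusted p under 0.05. Over all 16938 genes tested, 23.0% were called, 12.3% higher and 10.7% lower in KO. The median log2 fold change, KO over WT, was 0.05 for the 9 genes and -0.00 over all genes tested. The groups did not overlap for 3 of the 9 genes and for 39.3% of all genes tested, and both counts are read beside those shares. Igf1 was the member whose call held under all 17 alternatives run. In bulk RNA, fewer cells of a type and less RNA per cell cannot be told apart.

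**Figure D1:**
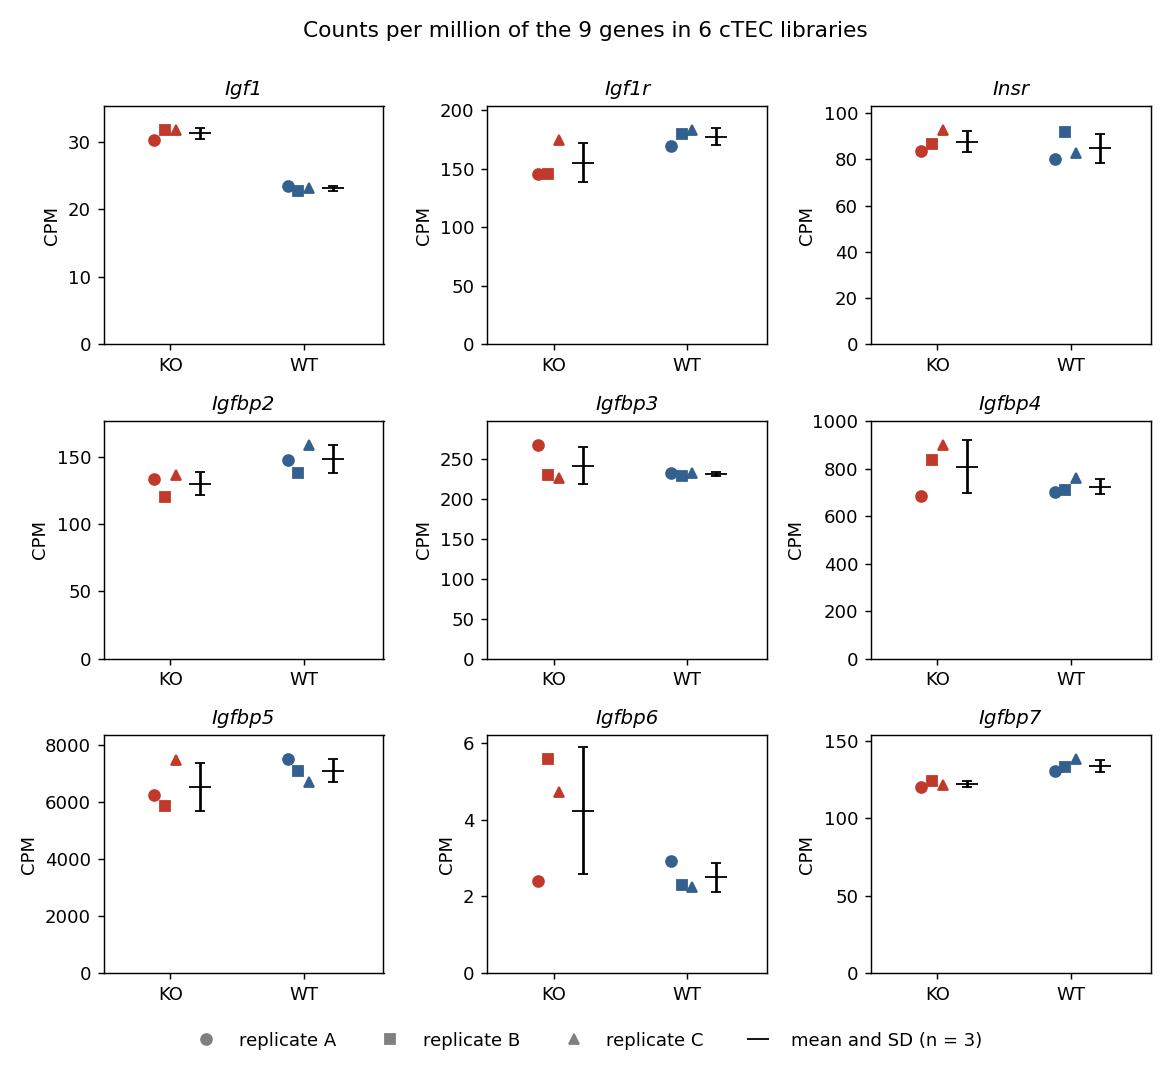
CPM (y axis, from 0) of each gene in KO (left, red) and WT (right, blue), 1 point per library with the replicate as its shape, and the mean and SD of 3 libraries as the black bar. The KO points of Igf1, at 30.2 to 31.7 CPM, all sit above the WT points, at 22.7 to 23.4 CPM, while the Igfbp4, Igfbp5 and Igfbp6 points of KO spread widely and overlap WT.

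The ligand gene Igf1 had 30.2, 31.7 and 31.7 CPM in KO libraries A to C, against 23.4, 22.7 and 23.2 CPM in WT libraries A to C. The 3 KO libraries lay close together and all above the WT libraries. Its mean was 31.2 ± 0.872 CPM in KO, against 23.1 ± 0.343 CPM in WT (n = 3 each, SD), a 1.35-fold higher level in KO. Its log2 fold change was thus 0.44 ± 0.05 (SE; edgeR adjusted p = 9.52e-05), on 1084 to 1169 counts in KO libraries and 805 to 905 in WT libraries. The adjusted p ranged from 8.24e-10 to 0.00929 over the alternatives, and the log2 fold change from 0.41 to 0.51. Per length, Igf1 had 20.2, 17.9 and 19.1 TPM (transcript abundance scaled for transcript length and depth) in KO and 12.6, 13.4 and 14.1 TPM in WT. The fibroblast and macrophage marker sums given above were higher in the same KO libraries, and their part in the Igf1 difference was not tested. Without KO replicate A, the Igf1 log2 fold change was 0.46 (edgeR adjusted p = 1.16e-04).

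The receptor gene Igf1r had 146, 145 and 174 CPM in KO libraries A to C, against 169, 179 and 183 CPM in WT libraries A to C. KO replicates A and B lay below every WT library, and KO replicate C lay among them. Igf1r fell to 155 ± 16.7 CPM in KO, against 177 ± 7.27 CPM in WT (n = 3 each, SD), with a log2 fold change of -0.19 ± 0.06 (SE; edgeR adjusted p = 0.0419). That call was lost without KO replicate A, KO replicate B, WT replicate B or WT replicate C (edgeR adjusted p = 0.124, 0.147, 0.125 and 0.143), and with robust quasi-likelihood (0.101). Without KO replicate C the log2 fold change was -0.29 (edgeR adjusted p = 0.00135). The call was also lost with a mean of at least 5 CPM (0.0604), with RSEM expected counts (0.0642) and with limma on log2(TPM + 1) (0.426).

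Insr, the insulin receptor gene, had 83.6, 86.7 and 92.7 CPM in KO libraries A to C, against 80.0, 92.0 and 82.6 CPM in WT libraries A to C. The groups overlapped, and the log2 fold change of 0.05 ± 0.05 (SE) did not pass the test (edgeR adjusted p = 0.599). Over the alternatives it ranged from 0.00 to 0.11. In TPM, the ratio of Igf1r to Insr was 1.27, 1.05 and 1.31 in KO libraries A to C and 1.36, 1.19 and 1.39 in WT libraries A to C. Per length, Igf1r was thus the higher of the pair in all 6 libraries.

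Igfbp5, the gene of a binding protein that also sticks to extracellular matrix, had the highest mean CPM of all 50600 genes in KO and in WT. It had 6251, 5854 and 7451 CPM in KO libraries A to C, against 7498, 7092 and 6680 CPM in WT libraries A to C, and took 0.588% to 0.743% of gene counts in KO libraries and 0.666% to 0.745% in WT libraries. The ranges overlapped, through KO replicate C. Its mean was 6519 ± 832 CPM in KO, against 7090 ± 409 CPM in WT (n = 3 each, SD), with a log2 fold change of -0.12 ± 0.07 (SE), which did not pass the test (edgeR adjusted p = 0.260). Without KO replicate C it was called lower, with a log2 fold change of -0.23 (edgeR adjusted p = 0.00839), and it was also called with no low count filter (0.00733). The transcript is long, and by TPM Igfbp5 ranked at place 62 in KO and 51 in WT.

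Igfbp4 encodes a binding protein known as an inhibitor of IGF action that is cut by the protease PAPP-A. It had 687, 837 and 902 CPM in KO libraries A to C, against 700.0, 712 and 759.9 CPM in WT libraries A to C. KO replicate A was the lowest of the 6 libraries, while KO replicates B and C were the highest. The log2 fold change of 0.16 ± 0.08 (SE) did not pass the test (edgeR adjusted p = 0.158), and without KO replicate A it was 0.26 and was called (edgeR adjusted p = 0.00109), as it was with no low count filter (0.0018). Igfbp6, whose product prefers IGF2 over IGF1, divided the libraries in the same way at a far lower level. It had 89, 206 and 162 counts in KO libraries A to C, or 2.40, 5.59 and 4.74 CPM, against 101, 83 and 88 counts in WT libraries A to C, or 2.93, 2.31 and 2.25 CPM. KO replicate A was within the WT range, and KO replicates B and C were above it. Its log2 fold change of 0.76 ± 0.26 (SE) missed the threshold (edgeR adjusted p = 0.0515), and it was called without KO replicate A (log2 fold change 1.05, edgeR adjusted p = 0.00109), with DESeq2 (adjusted p = 0.0238), with no low count filter (edgeR adjusted p = 0.000499), with upper quartile normalization (edgeR adjusted p = 0.0483) and with unstranded counts (0.0480).

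Igfbp2 and Igfbp7 fell in KO by small amounts. The cTEC marker sum given above, which includes Psmb11, was also lower in KO, and its part in these differences was not tested. Igfbp2, a binding protein gene active in development and metabolism, had 134, 120 and 136 CPM in KO libraries A to C, against 147, 138 and 159 CPM in WT libraries A to C. All KO libraries lay below all WT libraries, though by only a few CPM between KO replicate C and WT replicate B. The log2 fold change was -0.19 ± 0.06 (SE; edgeR adjusted p = 0.0287), 1.14-fold lower in KO. The call was lost without KO replicate B, WT replicate A or WT replicate C (edgeR adjusted p = 0.109, 0.0690 and 0.140) and with limma on log2(TPM + 1) (0.237). Igfbp7, a relative of the family that binds IGFs weakly, is known as a product of endothelial and stromal cells. It had 121, 124 and 122 CPM in KO libraries A to C, against 131, 133 and 138 CPM in WT libraries A to C. The groups did not overlap, and the spread within KO was small, 122 ± 1.89 CPM (SD, n = 3). The log2 fold change was -0.13 ± 0.04 (SE; edgeR adjusted p = 0.0171), a 1.10-fold lower level in KO, and the call was lost without WT replicate C (0.0899) and with limma on log2(TPM + 1) (0.0975).

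Igfbp3, the gene of the main carrier of IGF1 in serum, had 269, 231 and 227 CPM in KO libraries A to C, against 233, 229 and 233 CPM in WT libraries A to C. KO replicate A stood above the other 5 libraries, which spanned only 227 to 233 CPM. Endothelial markers (85.5 CPM) and thymocyte markers (192 CPM) both summed highest in the same library. Over the other 5 libraries endothelial markers summed to 25.4 to 61.1 CPM. The part of these cells in the Igfbp3 value of KO replicate A was not tested. The log2 fold change of 0.06 ± 0.05 (SE) did not pass the test (edgeR adjusted p = 0.453), and it was -0.02 without KO replicate A.

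**Figure D2:**
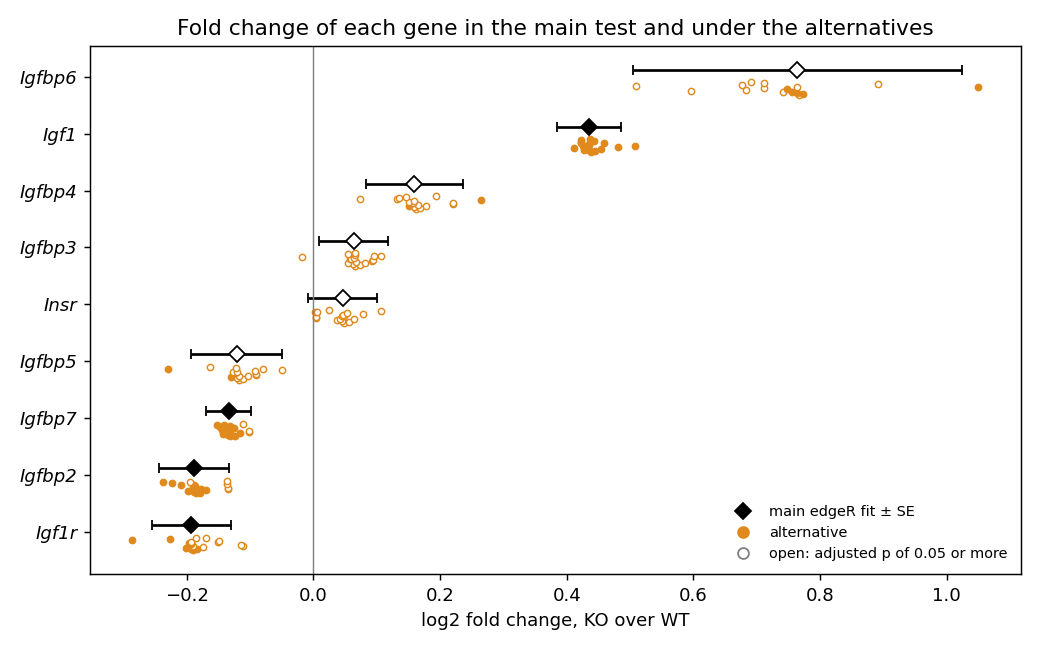
Log2 fold change, KO over WT (x axis), of each gene in the edgeR test (black diamond with SE) and under each alternative (orange points below it), filled where the adjusted p was under 0.05 and open otherwise. Igf1 stays filled throughout, from 0.41 to 0.51, whereas Igf1r, Igfbp2, Igfbp4, Igfbp5, Igfbp6 and Igfbp7 have both filled and open points.

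Per length, the order of the 9 levels was the same in KO and in WT. Igfbp5 led with 1960 ± 250 TPM in KO and 2079 ± 114 TPM in WT, followed by Igfbp4 with 777 ± 113 TPM in KO and 662 ± 19.5 TPM in WT (n = 3 each, SD). Igfbp7, Igfbp2 and Igfbp3 followed with 214, 208 and 190 TPM in KO and 229, 228 and 177 TPM in WT. Igfbp7 and Igfbp2 could not be ordered in either genotype, since Igfbp2 was the higher of the pair in 2 of 3 libraries of each. The ranges of Igfbp2 and Igfbp3 overlapped in KO (190 to 217 and 178 to 211 TPM) and were apart in WT. Igf1r, Insr and Igf1 came next with 26.7, 22.1 and 19.1 TPM in KO and 28.8, 22.1 and 13.4 TPM in WT, and Igfbp6 was last with 7.45 TPM in KO and 4.36 TPM in WT. Insr and Igf1 overlapped in KO but were apart in WT.

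**Figure D3:**
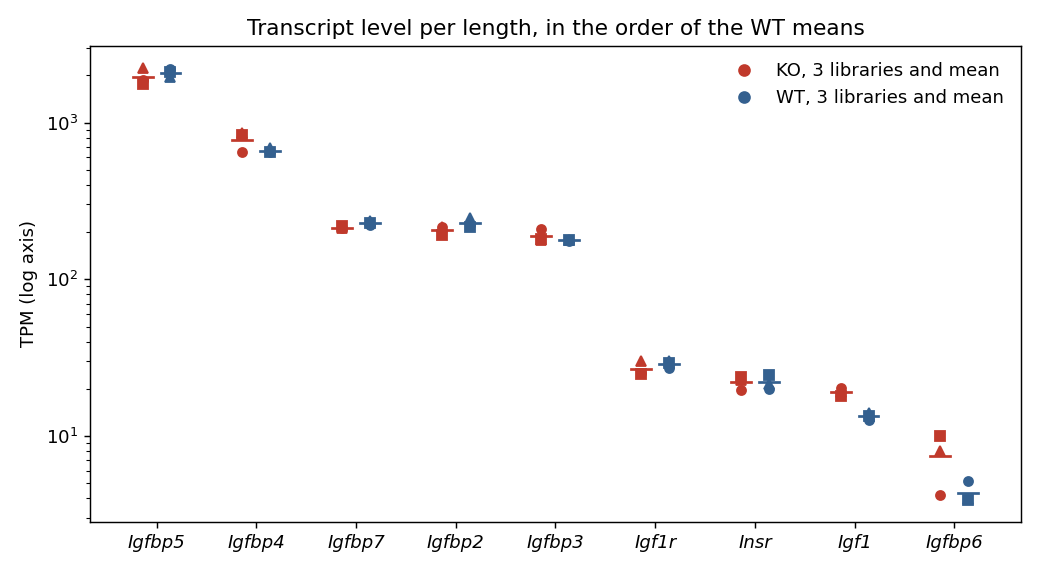
TPM (log axis) of the 9 genes in the order of their WT means, with KO (red) left of WT (blue), 1 point per library and the mean as a line. Binding protein genes other than Igfbp6 lie between 177 and 2241 TPM, above both receptor genes and Igf1, whose means lie between 13.4 and 28.8 TPM.

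The 6 binding protein genes summed to 3169, 3190 and 3709 TPM in KO libraries A to C and to 3458, 3380 and 3304 TPM in WT libraries A to C. Igfbp5 made up 59.3%, 55.2% and 60.4% of that sum in KO and 63.1%, 62.2% and 59.2% in WT, and Igfbp4 20.4%, 26.0% and 23.0% in KO and 18.8%, 19.3% and 20.7% in WT. The ranges of both genes overlapped between genotypes. Igfbp6 made up 0.133% to 0.315% in KO and 0.116% to 0.150% in WT.

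**Figure D4:**
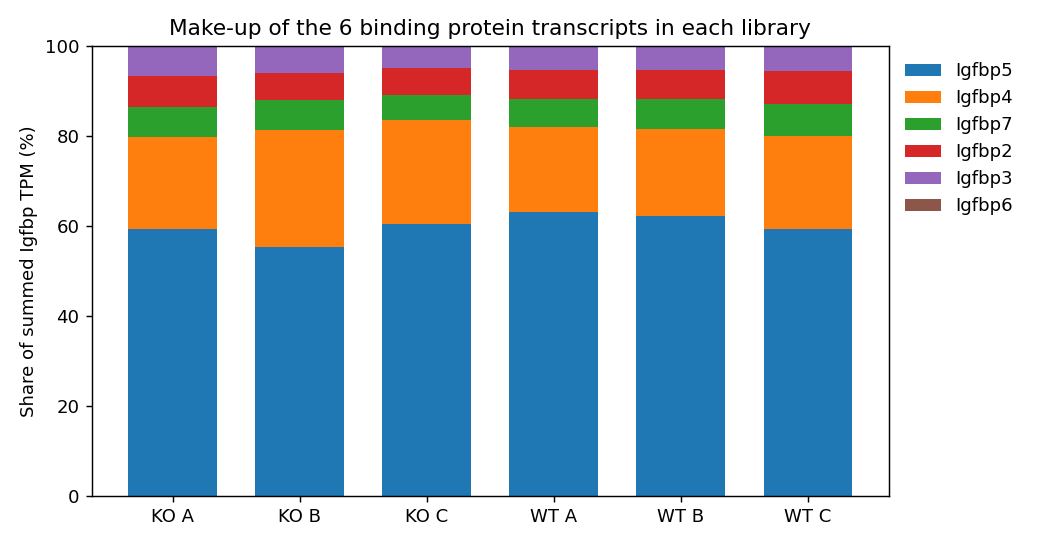
Share of each binding protein gene in the summed Igfbp TPM (y axis, percent) in the 3 KO libraries (left) and the 3 WT libraries (right). Igfbp5 takes 55.2% to 63.1% of every bar and Igfbp4 18.8% to 26.0%, and Igfbp6 is too small to see.

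Of 13 other ligands, carriers and proteases of the system that were tested, 2 rose and 1 fell, or 23.1% called beside 23.0% of all genes tested, and the median log2 fold change was 0.15. Htra1, a secreted protease that cuts IGF binding proteins in human, fell to 241 ± 13.6 CPM in KO, against 322 ± 13.2 CPM in WT (n = 3 each, SD), with a log2 fold change of -0.42 (edgeR adjusted p = 6.44e-05). Adam12, a metalloprotease that cuts IGFBP3 and IGFBP5 in human, had 3.93, 3.53 and 4.07 CPM in KO, against 1.89, 1.64 and 2.18 CPM in WT, a 2.01-fold rise at a low level (edgeR adjusted p = 9.24e-04). Adam9 rose 1.11-fold (edgeR adjusted p = 0.0191), a call lost without KO replicate B, WT replicate A or WT replicate C (0.0544, 0.0884 and 0.0703). Igf2r, the receptor that clears IGF2, had 139, 137 and 157 CPM in KO, against 125, 135 and 133 CPM in WT and did not pass the test (edgeR adjusted p = 0.0747), although it was called without KO replicate B (0.0484), with the replicate block (0.0466) and with a mean of at least 5 CPM (0.0427). The ligand gene Igf2 averaged 3.39 ± 0.882 CPM in KO, against 2.43 ± 0.875 CPM in WT. Pappa, which encodes PAPP-A, averaged 1.11 ± 0.449 CPM in KO, against 0.941 ± 0.242 CPM in WT (n = 3 each, SD), and neither passed the test (edgeR adjusted p = 0.214 for Igf2 and 0.668 for Pappa). Igfbp1, which lies 3539 bp from Igfbp3, had 1, 0 and 2 counts in KO and 0, 2 and 0 counts in WT and was not tested.

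Adaptors and brakes of the receptors were called in 9 of 19 cases (47.4%, beside 23.0% of all genes tested). Of these, 6 were higher and 3 lower in KO, and the median log2 fold change of the list was 0.05. Grb10, an adaptor known to restrain both receptors, fell to 26.9 ± 2.66 CPM in KO, against 39.7 ± 1.47 CPM in WT (SD over 3 libraries; edgeR adjusted p = 9.37e-05). Socs2, which is induced by growth hormone and dampens its receptor, had 20.7, 16.9 and 21.2 CPM in KO, against 10.3, 9.94 and 12.6 CPM in WT, and rose 1.78-fold (edgeR adjusted p = 2.12e-04; 0.0656 with limma on log2(TPM + 1)). Cav1, a scaffold of membrane caveolae abundant in stromal cells, rose 1.51-fold (edgeR adjusted p = 8.32e-04), and Mdm2, a ubiquitin ligase that acts on p53 and on IGF1R, rose 1.19-fold (edgeR adjusted p = 7.76e-04). Grb2, the adaptor that links receptors to Ras, fell by 0.17 on the log2 scale (edgeR adjusted p = 0.00303; 0.572 with limma on log2(TPM + 1)). The substrate genes Irs1 and Irs2 did not pass the test (edgeR adjusted p = 0.866 and 0.0543). They had 66.8 ± 4.49 and 330.1 ± 8.50 CPM in KO, against 67.5 ± 2.78 and 301 ± 19.0 CPM in WT (n = 3 each, SD). The groups overlapped for Irs1, while for Irs2 all KO libraries lay above all WT libraries.

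Of 36 genes of PI3K, Akt, mTORC1 and FoxO, 8 rose, 2 fell and 26 did not pass the test. The share called was 27.8%, beside 23.0% of all genes tested, and the median log2 fold change was 0.02. Sgk1, a kinase related to Akt, rose to 101 ± 4.58 CPM in KO, against 79.3 ± 4.87 CPM in WT (n = 3 each, SD; edgeR adjusted p = 3.46e-04). The PI3K catalytic genes Pik3cd, typical of leukocytes, and Pik3cb rose at low levels, with 2.24 and 8.62 CPM in KO, against 1.12 and 6.43 CPM in WT (edgeR adjusted p = 0.0193 and 0.0226). Pik3cd was not called without KO replicate A, WT replicate B or WT replicate C (0.0765, 0.0662 and 0.0820), with unstranded counts (0.0746) or with RSEM expected counts (0.0613), nor was Pik3cb without KO replicate C, WT replicate A or WT replicate B (0.0866, 0.0896 and 0.0595) or with limma on log2(TPM + 1) (0.146). Pik3r2, a PI3K regulatory subunit gene, and Rptor, the mTORC1 scaffold gene, fell by 0.15 and 0.16 on the log2 scale (edgeR adjusted p = 0.00775 and 0.0113), calls lost with limma on log2(TPM + 1) (0.0710 and 0.214) and, for Rptor, without WT replicate C (0.0609). Leaving out KO replicate C gave 2 rises and 3 falls in the list. Leaving out WT replicate A gave 3 and 2, WT replicate B 3 and 3, and WT replicate C 3 and 1. With limma on log2(TPM + 1), 1 of 34 genes tested rose and 0 fell, so nearly all calls of the list were lost. Pik3cd and 8 of 14 dendritic cell and macrophage markers tested were called higher in KO, and their shared direction follows from being picked by those calls. In KO libraries A to C, Pik3cd had 3.18, 1.66 and 1.87 CPM. Dendritic cell and macrophage markers summed there to 84.5, 78.6 and 85.3 CPM, and thymocyte markers to 192, 134 and 117 CPM. The part of these cells in the Pik3cd difference was not tested.

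Genes known as FoxO or growth hormone targets, or as the growth hormone receptor and its Stat5 factors, were called in 10 of 18 cases. That was 55.6%, beside 23.0% of all genes tested. Of these, 5 were higher and 5 lower in KO, and the median log2 fold change of the list was 0.01. Socs2 is on this list too. Fbxo32, a ubiquitin ligase gene that FoxO factors induce in muscle, had 68.4, 67.5 and 65.5 CPM in KO, against 46.5, 49.8 and 53.9 CPM in WT, and rose 1.34-fold (edgeR adjusted p = 1.28e-04). Bcl6, a transcriptional repressor, rose by 0.29 on the log2 scale (edgeR adjusted p = 0.00412). Klf15, a transcription factor of nutrient metabolism, had 48.3, 54.4 and 58.1 CPM in KO, against 72.2, 68.1 and 65.5 CPM in WT, and fell 1.28-fold (edgeR adjusted p = 0.00134). Pik3ip1, an inhibitor of PI3K, fell 1.16-fold (edgeR adjusted p = 0.00178). The list thus moved in both directions, and it held 3 rises and 2 falls without WT replicate B, and also with limma on log2(TPM + 1). Across all 4 lists, 85 genes other than the 9 were tested and 31 (36.5%) were called, 20 higher and 11 lower in KO. The share over all genes tested was 23.0%, and the lists were chosen with earlier results of these data known.

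**Figure D5:**
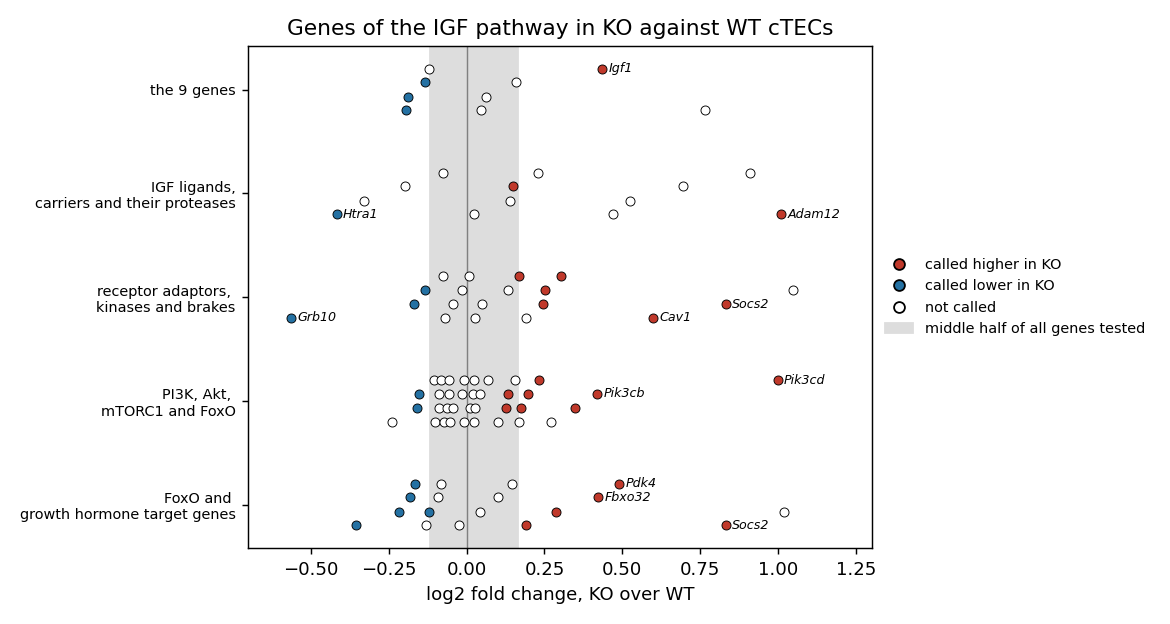
Log2 fold change, KO over WT (x axis), of the 9 genes and of the tested genes of the 4 pathway lists, 1 point per gene, red where called higher in KO, blue where called lower and white where not called. The grey band spans the quartiles of all 16938 genes tested, from -0.12 to 0.16, and among the called genes Adam12 lies farthest to its right, at 1.01.

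The genes whose log2 CPM followed that of a member most closely over the 6 libraries were sought among 10910 genes whose mean over the libraries reached 5 CPM. For Igfbp5 they were Prrg2, Rnf40 and Sh3bp5l (Pearson r = 0.992, 0.989 and 0.986 over 6 libraries). For Igf1r they were Epg5, Zfp658 and Pex6 (Pearson r = 0.989, 0.988 and 0.985 over 6 libraries). These values describe libraries that share genotype and preparation.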

How the data were processed

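Polyadenylated RNA of 3 KO and 3 WT cTEC samples was analysed. Per the submitters' processing notes, bcl2fastq 2.17, STAR 2.5.1b and RSEM 1.2.28 were used, with a human genome build named although the identifiers are mouse, so the alignment build is uncertain. The authors deposited raw read counts per gene for each strand setting, and column 4 was used. The deposited expected counts, TPM and FPKM are RSEM estimates, the last pair scaled by length and depth. Symbols came from GENCODE M21 for 50376 of 50600 identifiers.

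Genes passing filterByExpr were compared with the edgeR 4.0.16 quasi-likelihood test (R 4.3.3, TMM, no block, no robust prior), with Benjamini-Hochberg adjustment over 16938 genes. CPM uses TMM library sizes. The SE comes from the F statistic and is approximate. The alternatives comprised DESeq2 1.42.0, normalization by RLE or by upper quartile, 2 filters, RSEM expected counts rounded to whole numbers, limma 3.58.1 on log2(TPM + 1) and log2(TPM + 0.1), unstranded counts, a replicate block and leaving out each library. Robust quasi-likelihood was added after seeing the data. The test was checked on simulated data in which 200 genes, drawn from a wide range of levels, were changed. There it found 44% of 1.25-fold changes, 70% of 1.5-fold changes and 94% of 2-fold changes, and 6.1% of its calls were false. Small changes can thus be missed.

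The members and lists were chosen with earlier results of these data known. Named genes were the 9 members, Psmb11, Igf2, Igf2r, Igfbp1, Pappa, up to 5 called genes of each pathway list by p, and 3 genes most like Igfbp5 (the member highest in CPM) and Igf1r. Irs1 and Irs2 were added after their values were seen. RefSeq promoters matched 8 of 9 members, and FPKM was used only to check the order of levels. Drawings used matplotlib 3.10.9.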

Additional observations from a re-analysis of the deposited data

How the results depend on the processing

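Igf1 kept its direction and its call under all 17 alternatives, and Psmb11 did too. The number of members called, 4 in the main test, was 7 with no low count filter and 1 with limma on log2(TPM + 1) or log2(TPM + 0.1), and it ranged from 1 to 5 when each library was left out. Genes called over the whole table numbered 1843 and 1882 with those limma fits, against 3899, and ranged from 2629 to 3451 with a library left out. Pathway genes called numbered 14 with either limma fit and 38 with no low count filter, against 31. With a library left out they ranged from 21 to 31. Marker genes called ranged from 42 to 54 with a library left out, a count added after seeing the data. Igfbp3 changed direction without KO replicate A (log2 fold change -0.019). The cause of these changes was not tested. In CPM, which is not scaled for length, Igfbp5 made up 83.2% of binding protein counts in KO and 85.1% in WT, and the ratio of Igf1r to Insr was 1.77 in KO and 2.09 in WT. FPKM gave the same order of levels.

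With the replicate block 3807 genes and 4 members were called, and it changed no call of a member; Igf2r was called with it (adjusted p = 0.0466). Libraries of the same letter had deviations correlated from -0.07 to 0.11. Such weak values over 3 pairs cannot decide whether the letters pair the samples. The counts of Igfbp6 and of the other genes below a few CPM limit what could be detected.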

Other observations

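RSEM's mean transcript length, which weights a gene's annotated transcripts by their estimated use, did not overlap between genotypes for Igf1r. It was 10088, 10068 and 10242 bases in KO libraries A to C and 10539, 10507 and 10393 bases in WT libraries A to C. The log2 fold change of Igf1r was -0.19 on counts and -0.11 on log2(TPM + 1). For Igfbp7, whose length was 1116 bases in every library, these values were -0.13 and -0.10. They also differed where lengths overlapped between genotypes, at -0.19 and -0.13 for Igfbp2 and 0.16 and 0.22 for Igfbp4. The Igf1 length overlapped between genotypes, with 2710, 3172 and 2974 bases in KO and 3271, 3014 and 2972 bases in WT, as did that of Insr, with 7360, 6459 and 7114 bases in KO and 6766, 6519 and 6627 bases in WT. The difference in length was not tested and was noticed after the values were seen. The share of all genes whose lengths did not overlap was not computed. The part of length in the Igf1r fold changes was not tested.

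The spread within each genotype is given for CPM of the binding protein genes. In KO the coefficient of variation was 13.7% for Igfbp4, 12.8% for Igfbp5 and 9.53% for Igfbp3, against 4.39%, 5.76% and 0.874% in WT. For Igfbp6, at low counts, it was 39.0% in KO and 15.1% in WT. It was smaller in KO for Igfbp7, with 1.54% in KO and 2.93% in WT, and for Igfbp2, with 6.51% and 7.04%.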
